A study of Mus musculus with 39 samples.

Results

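RNAs encoding the cytosolic Hsp70 and Hsp90 chaperones, their co-chaperones and the small heat shock protein Hspb1 were followed across sucrose gradient fractions of mouse liver. The genes were given by name, with no threshold on their values, though earlier results of these data were known: Hspa8, Hspa1a, Hspa1b, Hsp90aa1, Hsp90ab1, Hsph1, Dnaja1, Dnajb1, Hspb1 and Stip1. All 10 were found among the 13230 genes listed for both gradients, and all 10 averaged at least 1 TPM over the libraries compared, which was required for testing. TPM is a length-scaled share of the transcripts of a library.

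The data are ATLAS-Seq profiles, in which a liver homogenate is layered on a sucrose gradient without detergent, spun, and cut into fractions whose RNA is sequenced. The livers came from wild-type FVB female mice, were broken with beads in buffered sucrose, and had lost their nuclei to a low-speed spin. Gradient 1 gave 17 libraries (fractions 4 to 19 and 21) and gradient 2 gave 22 (fractions 3 to 24), which are biological replicates with 1 library per fraction, so that 17 fraction numbers were shared. Low fraction numbers are light and high numbers are dense. The age of the mice is not given in the sources used here. The labels name no treatment and no control group, and the comparisons are between positions in a gradient and between the 2 gradients. Since an equal mass of RNA entered each library, TPM is a share of the RNA of a fraction and not the amount of a transcript in it. In whole liver, moreover, fewer cells of a type and less RNA per cell cannot be told apart. The hepatocyte markers summed to between 12490 and 54845 TPM in every library, while the macrophage markers summed to at most 168 TPM and the cholangiocyte markers to at most 8.11 TPM, so hepatocyte RNA was by far the most abundant of these lists. Of the 10 hepatocyte markers, 9 were listed for both gradients.

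Hsp70 proteins bind short hydrophobic stretches of unfolded proteins and release them in a cycle driven by ATP. J-domain proteins hand substrates to Hsp70 and start its ATP hydrolysis, and nucleotide exchange factors reset it. Stip1 links Hsp70 to Hsp90, which completes the folding of many kinases and steroid hormone receptors, and small heat shock proteins such as Hspb1 hold unfolding proteins without using ATP. Some of these genes are expressed at all times in liver, as Hspa8 and Hsp90ab1 are, and others, above all Hspa1a and Hspa1b, are induced by heat shock factor 1 when proteins unfold.

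Most of the 10 RNAs took a larger share of the RNA of dense fractions than of light ones. Stip1, Hspb1, Dnaja1, Hsp90aa1, Hsph1 and Hsp90ab1 rose from the light to the dense zone in a test across all genes, in which 22.3% of all genes were higher and 39.6% were lower. Of these 6 calls, that of Hsp90ab1 was lost when any of 3 zone means was left out. Hspa8 had a different profile, in which the dense zone was 0.27 times the light zone in gradient 1 and 1.02 times in gradient 2. Its highest light-zone value was in fraction 6 of both gradients, as for Hsp90ab1 and Hsph1. Its dense zone was 1.33 times its middle zone in gradient 1 and 1.94 times in gradient 2, beside 2.04 and 1.96 times for Hsp90ab1. Hspa1a and Hspa1b were 15.8 and 14.0 times higher in gradient 2 than in gradient 1.

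**Figure D1:**
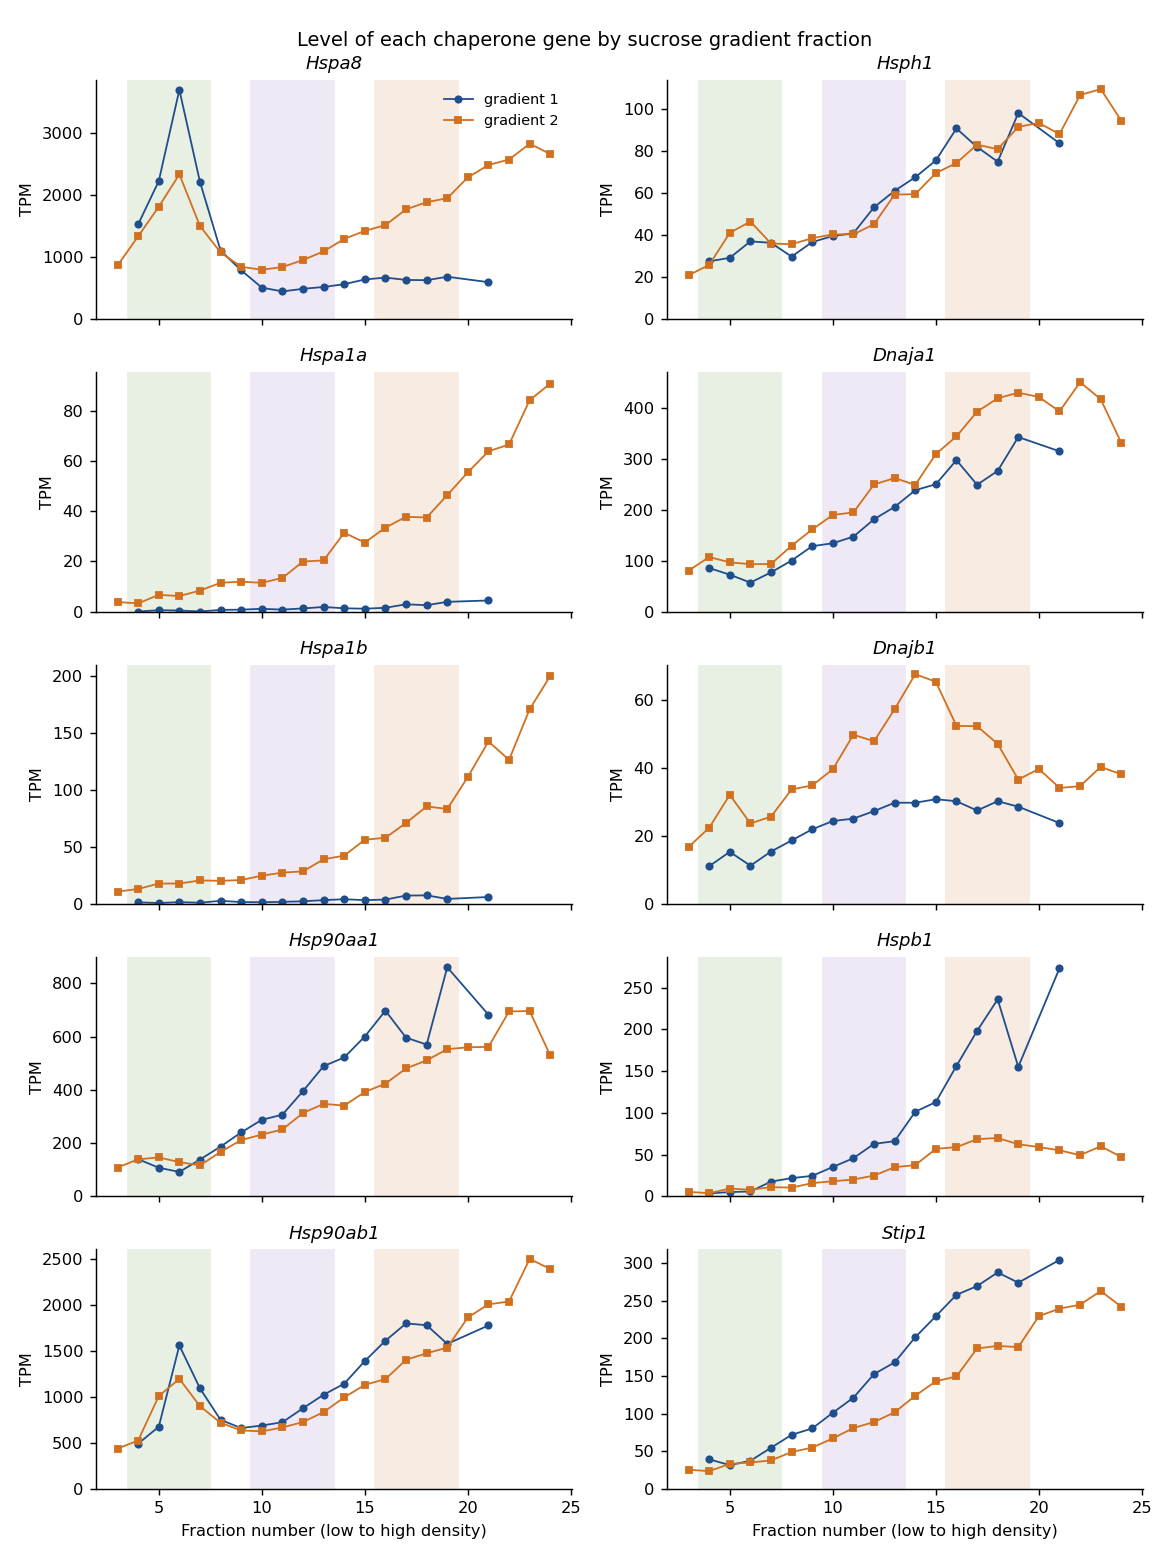
TPM of each of the 10 genes (vertical axis, from 0, with its own scale in each panel) against fraction number (horizontal axis), with 1 point per library. Circles are gradient 1 and squares are gradient 2, and the shaded bands are the light, middle and dense zones. Hspa8 and Hsp90ab1 have a peak at fraction 6 in both gradients, and Hspa1a and Hspa1b stay at or below 7.54 TPM in gradient 1 while they reach 90.9 and 200.1 TPM in gradient 2.

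The levels of the members ran from 12.2 to 1256 TPM, as means over the 17 shared fractions and both gradients. TPM is scaled by transcript length, so levels of different genes can be set side by side. Hspa8 (the constitutive Hsp70) and Hsp90ab1 (the constitutive Hsp90) led, at 1256 ± 290 and 1093 ± 84.9 TPM (mean ± SD, n = 2 gradients). They traded places between the gradients, and their difference was within the spread. They were followed without overlap by Hsp90aa1 (the inducible Hsp90) at 360 ± 66.4 TPM, Dnaja1 at 214 ± 39.9 TPM and Stip1 at 132 ± 37.0 TPM. Hspb1 (61.4 ± 39.7 TPM) and Hsph1 (56.4 ± 0.341 TPM) did not differ beyond their spread. Dnajb1 (33.1 ± 13.4 TPM), Hspa1b (24.3 ± 29.8 TPM) and Hspa1a (12.2 ± 15.2 TPM) closed the order of the means, and the ranges of neighbors among these 3 overlapped. The range of Hspb1 also overlapped those of Dnajb1 and Hspa1b, and in gradient 2 Hspb1 (33.3 TPM) lay below both (42.6 and 45.3 TPM). All 10 together took between 1820 and 5490 TPM of a library in gradient 1, and between 1571 and 7164 TPM in gradient 2.

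Hspa8, on chr9:40800984-40810087 of GRCm38 (plus strand, at most 9 exons in an annotated transcript), encodes the Hsc70 protein that liver cells make without stress. In gradient 1 the 4 light-zone libraries (fractions 4 to 7) held 1524, 2220, 3689 and 2206 TPM, and in gradient 2 they held 1332, 1807, 2329 and 1497 TPM. The light-zone peak was in fraction 6 in both gradients. From there the level fell to 445 TPM at fraction 11 in gradient 1 and to 793 TPM at fraction 10 in gradient 2, a drop of 8.30-fold and 2.93-fold. The dense zone (fractions 16 to 19) then ran between 625 and 681 TPM in gradient 1. In gradient 2 it ran between 1512 and 1945 TPM, and the level went on to 2821 TPM at fraction 23, above its own light peak. No dense-zone library of gradient 1 reached any dense-zone library of gradient 2.

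The dense minus light difference in log2(TPM + 1) was -1.81 in gradient 1 and 0.055 in gradient 2, and their mean of -0.88 ± 0.54 (SE, n = 2) was not past the threshold (adjusted p = 0.199, limma). Without the dense zone of gradient 2 it was -1.60, with an adjusted p of 0.0258 (limma). The middle minus light difference was -2.23 and -0.90, with a mean of -1.56 ± 0.54 and an adjusted p of 0.0562 with limma. With the gradient as a block that adjusted p was 0.0243, and the value then lay on the other side of the threshold of 0.05. Over the 17 shared fractions Hspa8 had a Pearson's R of 0.437 between gradients (rho = 0.466), and R was 0.0548 without the 2 libraries farthest from the median in gradient 1. All other members had an R of 0.824 or more, and the median of the 10 was 0.930. Over the 11371 genes that averaged at least 1 TPM in each gradient the median R was 0.904, and 8.25% of them had an R as low as that of Hspa8 or lower. Adjacent fractions are not independent of each other, and each R stands here as a description. Among the transcripts of Hspa8, 43.5% of the 31-base words also occur in transcripts of 17 other genes, most of all in Gm15459, so some of its reads could be assigned elsewhere. Of these 17 genes, 3 were listed in both tables. The small nucleolar RNAs Snord14c, Snord14d and Snord14e overlap Hspa8 on the same strand. Values are given here for Snord14c and Snord14d, which were listed above 0 in few libraries, and not for Snord14e. Snord14c was above 0 in 1 of 17 libraries of gradient 1 (12.7 TPM, fraction 4) and in 5 of 22 of gradient 2 (at most 54.1 TPM, fraction 5). Snord14d was above 0 in 2 of 17 (at most 6.61 TPM, fraction 10) and in 5 of 22 (at most 101.5 TPM, fraction 3), and both were listed at 0 in fraction 6 of each gradient.

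A light peak as such was common. Among 6729 genes that averaged at least 10 TPM in each gradient, 30.4% had a light-zone maximum at least 2 times their lowest value in fractions 8 to 13 in both gradients, and of the 8 members above that mean this held for 1, Hspa8. A profile with 2 arms, in which both the light maximum and the dense maximum were at least 1.5 times that lowest value in both gradients, was found in 6.55% of the genes and in 2 of the 8 members, Hspa8 and Hsp90ab1. Both rules were chosen after the values had been seen, and they describe these libraries only.

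Hspa1a and Hspa1b are the inducible Hsp70 genes, each of 1 exon and each on the minus strand of chromosome 17, at chr17:34969190-34972156 and chr17:34956436-34959238 with 9951 bases between them. In gradient 1 Hspa1a ran from 0 to 4.40 TPM with a median of 1.12 over 17 libraries, and it was listed at 0 in fractions 4 and 7. In gradient 2 it ran from 3.23 to 90.9 TPM with a median of 23.9 over 22 libraries. Hspa1b ran from 0.812 to 7.54 TPM (median 2.72) in gradient 1 and from 10.9 to 200.1 TPM (median 40.8) in gradient 2. For Hspa1b no library of gradient 2 was as low as any library of gradient 1, and both genes were higher in gradient 2 in 17 of 17 shared fractions.

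The mean level of Hspa1a over the shared fractions was 1.45 TPM in gradient 1 and 23.0 TPM in gradient 2, which is 15.8 times higher. For Hspa1b the means were 3.23 and 45.3 TPM, which is 14.0 times higher, and within single fractions the ratio ran from 7.46 to 23.5. The summed level of the pair, which depends little on how shared reads were split, was 14.6 times higher. Of 11702 genes that averaged at least 1 TPM, 2.39% were at least 2 times higher in gradient 2, and 4.11% were at least 2 times higher in gradient 1. Hspa1a and Hspa1b were 3rd and 4th in the order of the ratio, after the noncoding RNAs Snord49a and Mir8116, which are named here after their values were seen. Each gradient is 1 library per fraction, so this difference has no test.

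**Figure D2:**
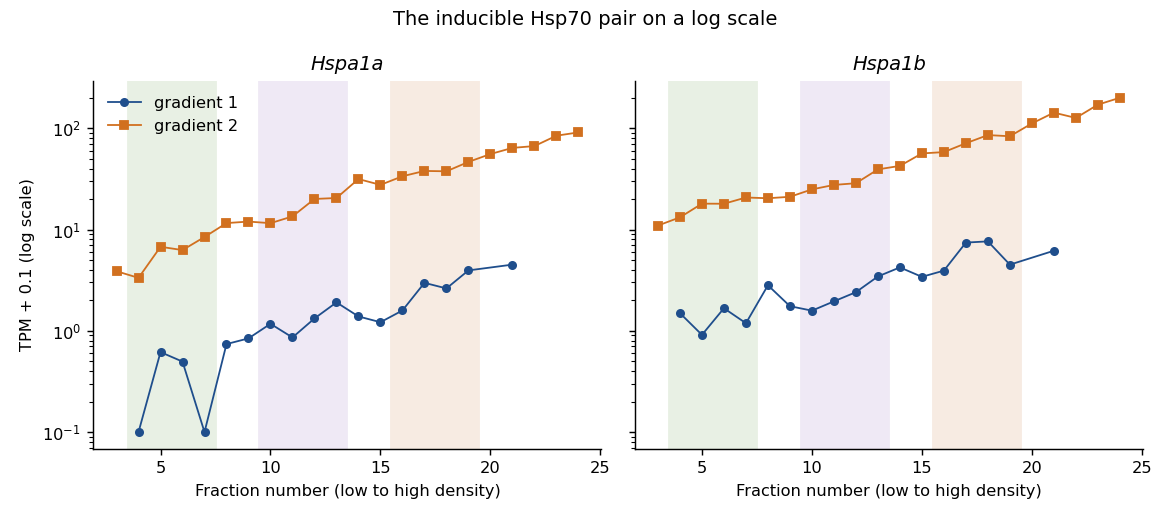
TPM + 0.1 on a log axis (vertical) against fraction number (horizontal) for Hspa1a (left) and Hspa1b (right), with 1 point per library, circles for gradient 1 and squares for gradient 2. The 2 curves of each gene climb side by side, and for Hspa1b they lie at least 7.46-fold apart in TPM at every shared fraction.

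The pair was higher in the dense than in the light zone of both gradients. For Hspa1a the dense-zone mean was 11.8 times the light-zone mean in gradient 1 and 6.36 times in gradient 2, and for Hspa1b 4.75 and 4.29 times. Dense-zone libraries of Hspa1a held 1.49, 2.88, 2.52 and 3.85 TPM in gradient 1 and 33.5, 37.8, 37.5 and 46.4 TPM in gradient 2, above every light-zone library of the same gradient. On the scale of log2(TPM + 1), which understates the change of low genes, the dense minus light difference was 2.05 ± 1.53 for Hspa1a and 1.81 ± 1.67 for Hspa1b (SE, n = 2). Within gradients 1 and 2 it was 1.57 and 2.53 for Hspa1a, and 1.58 and 2.04 for Hspa1b. Without the dense zone of gradient 2 it was 0.32 for Hspa1a and 0.055 for Hspa1b, and without the light zone of gradient 1 it was 0.80 and 0.29. Without the light zone of gradient 2 it was 3.30 and 3.33, and without the dense zone of gradient 1 it was 3.78 and 3.56. Such a fit sets a mean of both gradients against 1 gradient, so these values also hold the gap in level between the gradients. With all zone means, a pseudocount of 0.1 gave 3.10 for Hspa1a. Neither gene was past the threshold in limma in the main fit (adjusted p = 0.282 and 0.379). With the gradient as a block the SE was 0.24 and 0.14, and the adjusted p was 0.000855 and 0.000234. The lightest libraries of gradient 1 lie near the lower end of what the table lists, and their errors are not known.

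The transcripts of the pair share long stretches of sequence, which bears on how far its members can be told apart. Of the 31-base words in the GENCODE transcript of Hspa1a, 63.8% occur in that of Hspa1b, and 67.6% of those of Hspa1b occur in Hspa1a. Reads inside such words do not tell the genes apart by sequence alone, and the RefSeq transcripts used by the authors were not compared here. Hspa1b took 68.9% of the summed mean TPM of the pair in gradient 1 and 66.3% in gradient 2. By fraction its share ran from 57.4% to 80.2% in gradient 2, and from 53.3% to 100% in gradient 1, where it was computed from a few TPM. A protein-coding gene model, Gm20481, overlaps Hspa1a on the opposite strand.

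The 250 bases before the annotated start of both genes are shown because these windows are where heat shock elements are looked for. The sequences are RefSeq's on GRCm38.p6, at chr17:34972157-34972406 and chr17:34959239-34959488, written 5′ to 3′ on the minus strand. Capitals mark a pair of the inverted 3-base units that heat shock factors bind, GAANNTTC or TTCNNGAA, which was searched on both strands (either form reads the same on the opposite strand).
Hspa1a: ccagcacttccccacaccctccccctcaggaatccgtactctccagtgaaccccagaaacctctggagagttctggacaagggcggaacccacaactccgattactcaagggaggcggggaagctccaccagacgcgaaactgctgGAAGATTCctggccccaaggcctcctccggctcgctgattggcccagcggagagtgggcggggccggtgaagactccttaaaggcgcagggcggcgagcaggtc
Hspa1b: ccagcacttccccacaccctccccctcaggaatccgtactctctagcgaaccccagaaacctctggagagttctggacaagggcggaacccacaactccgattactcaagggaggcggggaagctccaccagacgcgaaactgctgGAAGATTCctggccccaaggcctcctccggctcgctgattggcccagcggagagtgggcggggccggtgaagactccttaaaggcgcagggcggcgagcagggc
They agree at 247 of 250 positions (98.8%). Each holds 1 match, which begins 104 bases before the start. Windows were at hand for 7 of the 10 members, and not for Hspa8, Hsp90aa1 and Hsp90ab1. These 7 genes had 11 windows, of which 6 held a match of 2 units, where 12.8% of all 32851 windows did. The 6 windows belong to 5 genes, and windows of 1 gene can overlap. None of the 7 had 3 alternating units, GAANNTTCNNGAA or TTCNNGAANNTTC, which 0.466% of all windows had. The other matches are printed with 8 bases on each side, capitals again marking the units. Those of Hspb1 begin 117 and 97 bases before the start, that of Dnaja1 begins 124 bases before the start of 1 of its 3 windows, and that of Hsph1 begins 33 or 54 bases before its alternative starts. These starts are RefSeq's. The GENCODE gene starts at 40722150 for Dnaja1 (plus strand) and at 149636376 for Hsph1 (minus strand), so their matches lie inside the GENCODE gene. A window of Dnajb1 (chr8:83608298-83608547) also lies inside its GENCODE gene.
Hspb1 (chr5:135887794-135887817, plus strand): caacaagaGAAGTTTCcagatggg
Hspb1 (chr5:135887814-135887837, plus strand): tgggggcaGAACCTTCctggcccc
Dnaja1 (chr4:40722336-40722359, plus strand): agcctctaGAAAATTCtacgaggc
Hsph1 (chr5:149636354-149636377, minus strand): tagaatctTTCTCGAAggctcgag
Dnajb1 and Stip1 had no match in their windows. A match is a description of letters, and whether a factor was bound there was not measured. The 5 genes with a match did not share a direction between the gradients: Hspa1a and Hspa1b were higher in gradient 2, Dnaja1 by 1.30 times, Hsph1 had nearly equal means of 56.6 and 56.1 TPM, and Hspb1 was 2.69 times higher in gradient 1.

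Hsp90aa1 (chr12:110690605-110702728, minus strand) and Hsp90ab1 (chr17:45567775-45573271, minus strand) encode the 2 cytosolic Hsp90 proteins, the first more inducible and the second constitutive. Hsp90aa1 ran from 91.8 TPM (fraction 6) to 861 TPM (fraction 19) in gradient 1 with a median of 396, and from 108 TPM (fraction 3) to 696 TPM (fraction 23) in gradient 2 with a median of 344. It had no light peak, and its lowest value in gradient 1 was in the very fraction where Hspa8 and Hsp90ab1 had their light peak. Its dense minus light difference was 2.19 ± 0.23 (SE, n = 2; adjusted p = 0.000734, limma), and the dense-zone libraries lay above all light-zone and all middle-zone libraries in both gradients.

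Hsp90ab1 had 2 arms. Its light-zone libraries held 491, 675, 1559 and 1092 TPM in gradient 1 and 525, 1009, 1196 and 899 TPM in gradient 2. It fell to 661 TPM at fraction 9 and 625 TPM at fraction 10, and its dense zone ran between 1576 and 1799 TPM in gradient 1 and between 1193 and 1536 TPM in gradient 2. The dense minus light difference of 0.82 ± 0.18 was past the threshold with limma (adjusted p = 0.0105), though in gradient 2 the fraction 6 library lay among the dense ones. It was no longer past it when the light zone of gradient 1, the light zone of gradient 2 or the dense zone of gradient 1 was left out (adjusted p = 0.0575, 0.0556 and 0.0512). The dense minus middle difference was 1.01 ± 0.18 (adjusted p = 0.0136, limma), and the middle minus light difference was -0.19 ± 0.18 (adjusted p = 0.432, limma).

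The share of Hsp90aa1 in the summed TPM of the 2 Hsp90 genes followed from this. It was lowest in fraction 6 in both gradients, at 5.56% and 9.73%, and its highest values were 35.3% (fraction 19 of gradient 1) and 30.1% (fraction 12 of gradient 2). The 2 genes share 0.0755% of the 31-base words of Hsp90aa1 transcripts, so their reads can be told apart. Hsp90aa1 does share 51.4% of its words with other genes, most of all with Gm12346 (46.7%), and of these 17 genes 7 were listed in both tables.

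**Figure D3:**
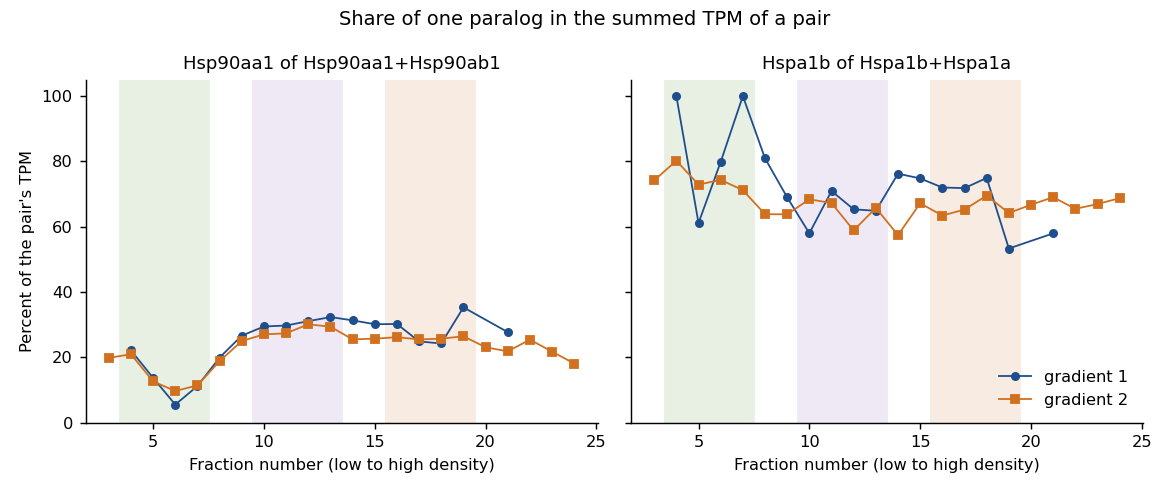
Share of the first gene in the summed TPM of a pair (vertical axis, percent, from 0) against fraction number (horizontal axis), for Hsp90aa1 among both Hsp90 genes (left) and Hspa1b among both inducible Hsp70 genes (right), with 1 point per library. Circles are gradient 1 and squares are gradient 2. The Hsp90aa1 share dips to 5.56% and 9.73% at fraction 6, and the Hspa1b share stays above 53% in every library.

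Hsph1 (chr5:149614287-149636376, minus strand) encodes Hsp110, a nucleotide exchange factor of Hsp70. It ran from 27.5 to 98.0 TPM (median 53.2) in gradient 1 and from 20.9 to 109 TPM (median 59.3) in gradient 2, and it was higher in gradient 2 in 8 of 17 shared fractions. A low bump at fraction 6 (37.0 and 46.4 TPM) exceeded the lowest of fractions 8 to 13 by 1.24-fold and 1.30-fold. Its dense minus light difference was 1.27 ± 0.16 (SE, n = 2; adjusted p = 0.00124, limma). The middle minus light difference of 0.44 ± 0.16 had an adjusted p of 0.0629 with limma and of 0.0165 with the gradient as a block.

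Dnaja1 (chr4:40722150-40737149, plus strand) and Dnajb1 (chr8:83608193-83612653, plus strand) encode J-domain partners of Hsp70, and they differed in profile. Dnaja1 ran from 56.9 TPM (fraction 6) to 343 TPM (fraction 19) in gradient 1 with a median of 182, and from 80.4 TPM (fraction 3) to 451 TPM (fraction 22) in gradient 2 with a median of 256. Its dense zone was 4.00 and 4.07 times its light zone, and the difference of 2.00 ± 0.26 was past the threshold (adjusted p = 0.00149, limma). Dnajb1, the J-domain protein that rises most readily in heat shock, peaked inside the gradient, at 30.9 TPM in fraction 15 of gradient 1 and at 67.7 TPM in fraction 14 of gradient 2. In gradient 2 it then fell to 36.7 TPM in fraction 19 and to 34.2 TPM in fraction 21. In gradient 1 fractions 12 to 19 all lay between 27.4 and 30.9 TPM.

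The dense zone of Dnajb1 lay above its light zone in both gradients, by 2.20 and 1.81 times in mean TPM. The difference of 0.96 ± 0.44 was not past the threshold with limma (adjusted p = 0.104), and with the gradient as a block its adjusted p was 0.000756. The dense and middle zones overlapped in both gradients (0.040 ± 0.44, adjusted p = 0.963, limma). Dnajb1 was higher in gradient 2 in 17 of 17 shared fractions, by 1.80 times in the mean (23.7 and 42.6 TPM), and 96.8% of the 11702 genes had that ratio or a lower one.

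Stip1 (chr19:7020702-7039967, minus strand, 14 exons) encodes the adaptor that joins Hsp70 and Hsp90. It ran from 31.5 TPM (fraction 5) to 304 TPM (fraction 21) in gradient 1 with a median of 153, and from 23.4 TPM (fraction 4) to 263 TPM (fraction 23) in gradient 2 with a median of 113. Its profile was the most alike between the gradients among the members (R = 0.981, rho = 0.993, n = 17 fractions). The dense zone was 6.71 and 5.53 times the light zone, a difference of 2.59 ± 0.31 (SE, n = 2; adjusted p = 0.00118, limma).

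Hspb1 (chr5:135887919-135889563, plus strand, at most 3 exons) encodes the small heat shock protein Hsp25 of the mouse. The light zone held 3.57, 5.20, 5.83 and 17.7 TPM in gradient 1 and 3.77, 9.40, 7.87 and 11.0 TPM in gradient 2. The dense zone held 156, 198, 236 and 155 TPM in gradient 1 and 59.0, 68.5, 69.9 and 62.4 TPM in gradient 2. The light zones of the gradients overlapped, and the dense zones did not. Hspb1 had the largest dense minus light difference of the 10, at 3.76 ± 0.56 (SE, n = 2; adjusted p = 0.00235, limma), with 4.57 in gradient 1 and 2.95 in gradient 2. Its mean level was 89.5 TPM in gradient 1 and 33.3 TPM in gradient 2, and it was the only member at least 2 times higher in gradient 1. No more than 1.16% of the 11702 genes had a ratio of gradient 2 to gradient 1 that was as low. Of its 31-base words, 52.3% also occur in 1 other gene, the pseudogene Hsp25-ps1, and the number of such genes listed in both tables was 0.

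Across the members, 6 of 10 were higher in the dense than in the light zone and 0 were lower, in a limma fit across 11754 genes in which 22.3% were higher and 39.6% were lower. These were Hsp90aa1, Hsp90ab1, Hsph1, Dnaja1, Hspb1 and Stip1. At an unadjusted p under 0.05 the count of lower members was also 0. The median difference of the members was 1.91, where the median of all genes was -0.43. With the gradient as a block 9 members were higher, all but Hspa8, where 30.5% of all genes were, and 0 were lower, where 50.0% were. Every dense-zone library lay above every light-zone library of its gradient for 8 of 10 members, and for 21.0% of all genes. The 2 exceptions were Hspa8 and Hsp90ab1.

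From the light to the middle zone, 4 members were higher (Hsp90aa1, Dnaja1, Hspb1 and Stip1; 23.5% of all genes) and 0 were lower (24.1%). At an unadjusted p under 0.05 Hspa8 was lower. Middle-zone libraries lay above all light-zone libraries of their gradient for 6 of 10 members and for 24.8% of all genes. Without the light zone of gradient 1 the middle minus light calls of Dnaja1, Hspb1 and Stip1 were lost (adjusted p = 0.0914, 0.128 and 0.0538, limma), those of Hspb1 and Stip1 were also lost without the light zone of gradient 2 or the middle zone of gradient 1, and that of Dnaja1 without the middle zone of gradient 2. With the gradient as a block, 8 were higher (37.2% of all genes) and 1, Hspa8, was lower (35.0%). From the middle to the dense zone 3 were higher (Hsp90aa1, Hsp90ab1 and Hsph1) where 4.79% of all genes were, and 8 were higher with the block, where 14.1% were. No member was lower there with or without the block (22.5% and 39.3% of all genes), also at an unadjusted p under 0.05. With quantile normalization 5 were higher, where 10.3% of all genes were, and 0 were lower, where 13.7% were. Dense-zone libraries lay above all middle-zone libraries for 8 of 10 members and for 11.9% of all genes. All 3 dense minus middle calls were lost without the middle zone of either gradient (adjusted p from 0.0732 to 0.199, limma), that of Hsph1 alone remained without the dense zone of gradient 1, and that of Hsp90aa1 was also lost without the light zone of either gradient (0.0880 and 0.0885). Quantile normalization moved the median of all genes from -0.43 to -0.053 for dense minus light and gave the same 6 members, where 30.7% of all genes were then higher and 29.9% lower, with the differences of the 10 running from -0.96 for Hspa8 to 4.06 for Hspb1.

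**Figure D4:**
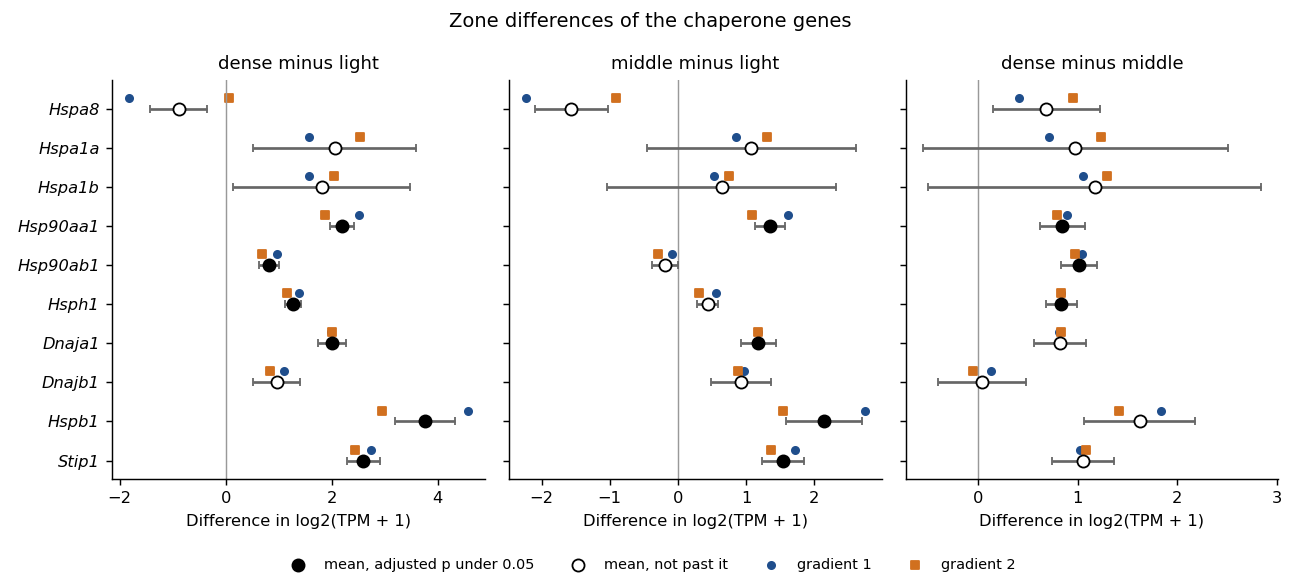
Difference in mean log2(TPM + 1) between zones (horizontal axis) for each gene (vertical axis), in 3 panels for dense minus light, middle minus light and dense minus middle. Large circles are means of the 2 gradients with the SE of the limma fit, filled where the adjusted p was under 0.05, and the small circles and squares above them are gradients 1 and 2. Hspa8 alone lies below 0 for dense minus light, and its gradients are far apart.

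The center of a profile, the mean fraction number weighted by TPM over the shared fractions, had the same order at its light end in both gradients: Hspa8, Dnajb1, Hsp90ab1 and Hsph1. The median of all genes was 11.3 in both gradients. Hspb1 had the densest center of the 10 in gradient 1 (16.4) and Hspa1a in gradient 2 (15.4). Hspa8 was the lightest in both, at 9.43 in gradient 1 and 12.6 in gradient 2, a shift of 3.21 fractions. Over all fractions of gradient 2 this order changed, with Dnajb1 (14.3) lighter than Hspa8 (15.2) and Hsph1 (16.1) lighter than Hsp90ab1 (16.2). Over the shared fractions the other 9 lay between 12.9 and 16.4 and shifted by at most 1.12 fractions, the value of Hspb1.

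The organelle relatives of these proteins were set beside them. Hspa5 and Hsp90b1, the Hsp70 and Hsp90 of the endoplasmic reticulum, had centers of 8.75 and 8.55 in gradient 1 and 10.1 and 9.84 in gradient 2. Hspa9 and Trap1, those of mitochondria, had centers of 14.8 and 15.3 in gradient 1 and 14.7 and 15.3 in gradient 2, among the dense cytosolic members. Hspa5 and Hsp90b1 were thus lighter than Hspa8 in each gradient, and all 3 had a denser center in gradient 2, by 1.33, 1.29 and 3.21 fractions.

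**Figure D5:**
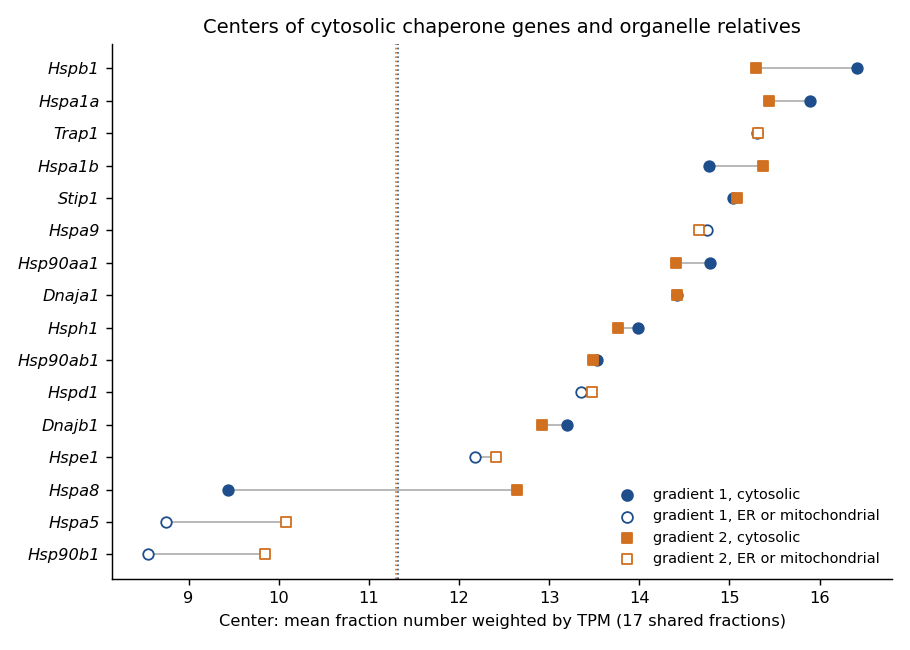
Center of each profile (horizontal axis, mean fraction number weighted by TPM over 17 shared fractions) for the 10 cytosolic genes (filled) and 6 relatives in the endoplasmic reticulum or mitochondria (open), ordered by the mean of both gradients. Circles are gradient 1, squares are gradient 2, and the dotted lines are the medians of all genes at 11.3. By the mean of both gradients Hspa8 lies between the endoplasmic reticulum pair and the other genes shown, and it has the longest gap between gradients. In gradient 2 alone the mitochondrial Hspe1 (12.4) is lighter than Hspa8 (12.6).

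The members were compared with each other over the 17 shared fractions, as a description, since they share libraries. Over all 45 pairs of the 10 members the median R was 0.807 in gradient 1 (lowest -0.821) and 0.861 in gradient 2 (lowest -0.28). A group of 7 was then formed by leaving out Hspa8, Hsp90ab1 and Dnajb1, whose profiles differ, so its R depends on that choice. These 7, Hsp90aa1, Hsph1, Dnaja1, Stip1, Hspb1, Hspa1a and Hspa1b, had a median R over their 21 pairs of 0.885 in gradient 1 and 0.950 in gradient 2. Hsp90ab1 had a median R of 0.785 and 0.836 with these 7, and Dnajb1 one of 0.768 and 0.462. Hspa8 changed sign, from a median R of -0.506 in gradient 1 to 0.473 in gradient 2.

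Genes outside the list with the most similar profiles were sought among 6721 genes that averaged at least 10 TPM in each gradient, ranked by the lower of their 2 values of R (17 fractions each). The mitochondrial Hsp70 gene Hspa9 came first for Hsp90aa1 (lower R = 0.993, followed by Smu1 and Psmd1) and for Dnaja1 (0.991, followed by Hnrnpa2b1 and Sult2a1). Smu1, which also overlaps Dnaja1 on the opposite strand, came first for Hsph1 (0.974, followed by Mdh1 and Anks4b). Stip1 was most like Hadha (0.995), Pgm2 and Aifm1, and Hspb1 was most like Sds (0.985), Acy1 and Atp6v1e1. For Hsp90ab1 these were Snd1 (0.953), Gpi1 and Tkt, and for Dnajb1 Nap1l4 (0.965), Sh3bp5 and Hsd17b10. Hspa1a was most like Golgb1 (0.962), Sirt4 and Rsrp1, and Hspa1b most like Nqo1 (0.945), Psmb10 and Nolc1. Hspa8 had the lowest first value of the 10, with Gm4737 at 0.892, then Sigirr and Plxnb2.

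Other genes of the chaperone system were read against the same background of 22.3% of all genes higher and 39.6% lower in the dense than in the light zone. Of 19 co-chaperones of Hsp90, 12 were higher and 1 was lower. Unc45a, a myosin chaperone, rose by 2.73 and the immunophilin Fkbp4 by 2.24 in log2(TPM + 1), while Cdc37l1, a relative of the kinase adaptor Cdc37, fell by 2.35. Fkbp5, an immunophilin induced by glucocorticoids, had a difference of -0.14 (adjusted p = 0.791, limma). Of 15 tested J-domain genes outside the members, 6 were higher and 3 were lower. Among those that averaged at least 10 TPM in each gradient, Dnajc7 (1.72) and Dnajb6 (1.33) were at the upper end and Dnajc5 (-1.59), a synaptic vesicle protein, was at the lower end. Among 10 nucleotide exchange and regulatory factors of Hsp70, 5 were higher and 2 were lower. Hspbp1 rose by 2.60 and Bag6 by 2.28, whereas Bag1, an exchange factor, fell by 3.70 and Bag4 fell by 1.56. Under the block, where 30.5% of all genes were higher and 50.0% lower, 15 co-chaperones of Hsp90 were higher and 1 was lower, 8 J-domain genes were higher and 4 were lower, and 6 exchange and regulatory factors were higher and 2 were lower. With quantile normalization, where 30.7% of all genes were higher and 29.9% lower, these counts were 13 and 1, 7 and 2, and 6 and 2.

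Of 4 tested genes listed as other small heat shock genes, Hspb8 was higher in the dense zone (1.30, adjusted p = 0.00831, limma). The other 3 were lower, Cryab (-1.97, named after its value was seen), Hspb6 (-1.59) and Hspb11 (-1.29), and Hspb11 is in this list by its symbol only. With quantile normalization 1 was higher and 2 were lower, and Hspb11 had a difference of -0.89 (adjusted p = 0.132, limma). Of all genes, 22.3% were higher and 39.6% lower, and 30.7% and 29.9% with quantile normalization. With 4 genes these counts are not read as a result about the list. Of the listed heat shock factors and proteins that bind them or a heat shock protein, 1 of 5 was higher and 0 were lower. The higher one was Hsf4 (0.86, adjusted p = 0.0349, limma), which is named after its value was seen. At an unadjusted p under 0.05 Hsbp1 was lower. With the gradient as a block 2 were higher, Hsf4 and Hsf2 (0.40, adjusted p = 0.120 without the block and 0.0184 with it, limma), and 2 were lower, Hsf1 and Hsbp1 (adjusted p = 0.0108 and 0.0144, limma). With quantile normalization 3 were higher, Hsf4, Hsf2 and Hspbap1, and 1 was lower, Hsbp1. These counts of 1, 2 and 3 of 5 higher stand beside 22.3%, 30.5% and 30.7% of all genes, and those of 0, 2 and 1 lower beside 39.6%, 50.0% and 29.9%, and with 5 genes they are not read as a result about the list. All of these genes were fitted together with the members.

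The chaperones of other compartments can be set beside the members. Of 8 subunits of CCT, the ring that folds actin and tubulin, 7 were higher in the dense zone and 0 were lower, led by Cct3 (2.99) and Cct8 (2.42). Of 13 chaperones of the endoplasmic reticulum, 0 were higher and 10 were lower, with Canx at -2.90 and Calr at -2.16. Of 6 mitochondrial chaperones, 4 were higher and 0 were lower, with Trap1 at 3.51 and Hspa9 at 2.41. The block gave 7 higher CCT subunits, 6 higher mitochondrial chaperones and 12 lower chaperones of the endoplasmic reticulum (30.5% of all genes higher, 50.0% lower). With quantile normalization (30.7% and 29.9%) these counts were 6, 3 and 9, and Cct4 and Hspd1 were among the genes no longer called. Median differences were 1.91 for the members, 1.49 for CCT, 0.93 for the mitochondrial list and -1.88 for the endoplasmic reticulum list. The difference between lists was not tested.

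The gap between gradients was then counted in the members and the other lists. Of the 10 members, 2 were at least 2 times higher in gradient 2 and 1 was at least 2 times higher in gradient 1. Among the 19 co-chaperones of Hsp90, the 8 CCT subunits, the 13 chaperones of the endoplasmic reticulum, the 6 mitochondrial chaperones, and the tested genes of the J-domain (15), exchange factor (10), other Hsp70 (3), other small heat shock (4) and heat shock factor and binding protein (5) lists, 0 genes passed that ratio in either direction. Of all genes, 2.39% were at least 2 times higher in gradient 2 and 4.11% in gradient 1. For each list taken alone a count of 0 is near that background, and the lists were not pooled. Median log2 ratios of gradient 2 to gradient 1 were -0.39, -0.11, 0.44, 0.0069, -0.18, -0.27, 0.19, -0.37 and -0.28 in these lists, in that order, and the median of all genes was -0.18. The 15 immediate early genes that averaged at least 1 TPM, of a kind that rises within minutes in handled tissue, had a median log2 ratio of -0.38, with 3 genes at least 2 times higher in gradient 2 and 1 in gradient 1. A pair of circadian clock genes, Ciart and Arntl, is given because of its ratios, chosen after the values had been seen, and no list of clock genes was counted. Ciart was at 1.87 and 23.1 TPM in gradients 1 and 2, and Arntl at 13.1 and 1.44 TPM. Of 3 blood cell markers that averaged at least 1 TPM, out of 6 in the list, 2 were at least 2 times higher in gradient 1, the neutrophil genes S100a8 (3.48 and 0.540 TPM in gradients 1 and 2) and S100a9 (5.66 and 1.46 TPM). The third, the globin gene Hba-a1, was at 253 and 187 TPM, and the summed level of the list ran from 61.6 to 524 TPM over libraries of gradient 1 and from 41.8 to 627 TPM in gradient 2. The 9 hepatocyte markers had a median log2 ratio of 0.58, and 0 of them passed 2 times in either direction. The part that handling, time of day or the makeup of cells had in the level of Hspa1a and Hspa1b was not tested.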

How the data were processed

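RNA of sucrose gradient fractions was prepared by the authors with a stranded kit that removes ribosomal RNA, with the same mass of RNA in each library, and sequenced in pairs. Per the labels, bcl2fastq 2.16.0.10 and Kallisto were used with mm10. The values deposited by the authors are TPM by gene symbol, in 1 table per gradient, from pseudo-alignment to RefSeq transcripts. The Kallisto version and the way transcripts were summed are not given in the sources used here. TPM holds no counts, so the depth and the counting error of a library are unknown, and precision is known from the 2 gradients only. The number of value columns not matched to a sample was 0, and the columns were matched by gradient and fraction number.

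Zone means of log2(TPM + 1) over 4 fractions per gradient (light 4 to 7, middle 10 to 13, dense 16 to 19) were fitted with limma 3.58.1 (R 4.3.3), with a trend in eBayes and Benjamini-Hochberg adjustment over 11754 genes that averaged at least 1 TPM in 24 libraries. The threshold was an adjusted p of 0.05, and differences on this scale understate those of low genes. The 3 zones of a gradient share a liver homogenate and are paired by it. The deviations of the gradients correlated between zones (r = 0.665, 0.540 and 0.798), and the fit was repeated with the gradient as a block. As checks of the code, the fit was run on simulated zone means and the search for similar profiles on a planted copy of the Stip1 profile. The simulated noise was independent between zones, unlike these deviations, so it does not bear on the pairing. Means, ratios, R and centers were computed with Python 3.11.15, and gene models were those of GENCODE M21 on GRCm38.

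The genes and lists were chosen with earlier results of these data known. Named beside the members are, from each list, genes that averaged at least 10 TPM in each gradient and had the 2 largest or 2 smallest dense minus light differences, the organelle relatives, and the 3 most similar genes per member. Outside this rule, Hsf1, Hsf4, Hspbap1, Cryab, S100a8, S100a9, Ciart, Arntl, Snord49a and Mir8116 were named after their values were seen. The alternatives were other pseudocounts, filters, scalings and zone borders, the block, and leaving out each zone mean or gradient.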

Additional observations from a re-analysis of the deposited data

How the results depend on the processing

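Of 180 member differences recomputed with another pseudocount, filter, scaling or zone border, 180 kept their direction and 174 their side of the threshold. Dense minus light gave 6 members in each of these settings, 9 with the block and 5 to 7 when a zone mean was left out, where the 7 are 6 higher and 1 lower, Hspa8 (without the dense zone of gradient 2). For middle minus light the count of 4 became 3 with other zone borders (Hspb1 lost, adjusted p = 0.0522, limma) and 9 with the block (8 higher, 1 lower), and ran from 1 to 5 when a zone mean was left out, with Hspa8 lower in 3 of these 6 fits (without the middle zone of gradient 2 or either dense zone). For dense minus middle the count of 3 became 5 with quantile normalization (with 10.3% of all genes higher in place of 4.79%) and 8 with the block, and ran from 0 to 5 when a zone mean was left out (0 without either middle zone). The block changed these calls: Hspa1a, Hspa1b and Dnajb1 (dense minus light, middle minus light), Hspa8 and Hsph1 (middle minus light), and Hspa1a, Hspa1b, Dnaja1, Hspb1 and Stip1 (dense minus middle). It changed no other call among the members. The block takes the mean gap between the gradients out of the error. With it the SE of dense minus light fell from 1.53 to 0.24 for Hspa1a, from 1.67 to 0.14 for Hspa1b and from 0.44 to 0.11 for Dnajb1. Why the level of a gene differed between the gradients was not tested.

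Some differences turned sign when 1 zone mean or gradient was left out, and they are given here as the lowest and highest such value. Dense minus light ran from -1.81 to 0.055 for Hspa8. Middle minus light ran from -0.39 to 2.55 for Hspa1a and from -0.99 to 2.27 for Hspa1b, and it was below 0 without the light zone of gradient 1 (-0.17 and -0.88) or the middle zone of gradient 2. Dense minus middle ran from -0.035 to 1.41 for Hspa8, from -0.76 to 2.71 for Hspa1a, from -0.59 to 2.92 for Hspa1b and from -0.38 to 0.46 for Dnajb1. The lowest of these came without the dense zone of gradient 2, except for Dnajb1, where it came without the middle zone of gradient 1. Values below 0 also came without the middle zone of gradient 1 for Hspa1a (-0.50) and Hspa1b (-0.47), and for Dnajb1 without the dense zone of gradient 2 (-0.29) or without all of gradient 1 (-0.048). None of those with a test passed the threshold. A fit without 1 zone mean sets a mean of both gradients against 1 gradient. Within gradients 1 and 2 middle minus light was 0.86 and 1.30 for Hspa1a and 0.53 and 0.75 for Hspa1b (adjusted p = 0.0113 and 0.0114 with the block, limma), and dense minus middle was 0.71 and 1.23 for Hspa1a and 1.05 and 1.29 for Hspa1b.

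The median center of the members, 14.5, was 15.6 over all fractions and 13.8 without fraction 21, and ran from 14.4 to 14.6 when a gradient was left out. Of 60 recomputed centers of single members, 33 were counted as moved and 27 as the same. The median R between gradients, 0.930, ran from 0.894 to 0.942, and the R of Hspa8, 0.437, was 0.0772 with gradient 2 shifted by 1 fraction to the dense side, 0.593 without fraction 21 and 0.346 with rescaling, beside the 0.0548 given above without the 2 farthest libraries. Ratios between gradients, under scalings and fraction sets chosen after seeing the data, kept their direction in 8 members. The log2 ratio of Hsph1, -0.012, became 0.15 over all fractions, 0.037 with rescaling and 0.095 with quantile normalization, and that of Hsp90ab1, -0.16, became 0.078 over all fractions. With TPM alone, depth limits the lowest values, those of Hspa1a and Hspa1b in gradient 1, to an unknown extent.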
